A study of Mus musculus with 4 samples.

Results

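The genes described here encode the subunits of the mitochondrial respiratory chain and of the ATP synthase. They were taken by symbol, as every gene whose name begins with Nduf, Uqcr, Atp5 or Cox4 to Cox8, the 4 succinate dehydrogenase genes Sdha to Sdhd, and the protein genes of the mitochondrial genome. This gave 107 of the 32285 genes in the count table, 94 of them nuclear and 13 mitochondrial. The nuclear set held 38 genes of complex I and 8 of its assembly factors, 4 genes of complex II, 8 of complex III, 17 of complex IV, 17 of complex V, and 2 further rows, Ndufb1-ps and Cox7a2l. Complexes were assigned by symbol alone, so Ndufa4 is counted with complex I here and below because of its name. Cyc1 falls outside the symbol rule and was read with the assembly and carrier genes. The mitochondrial set held 7 genes of complex I, 1 of complex III, 3 of complex IV and 2 of complex V. All 107 were matched by symbol to RefSeq on GRCm38.p6. Transcripts of Cox4i2, Cox7b2, Cox8b, Cox8c and Ndufa4l2 had 0 counts in all 4918 kept cells. For each gene this limits the cells with a UMI to at most 0.0610% and sets no limit on the share of cells that express it below detection.

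The cells were viable CD45+ leukocytes sorted from the ovaries of C57BL/6J females that were 10 to 12 weeks old. The Gonadotropin group was 5 mice collected 48 h after gonadotropin, a class of hormones that drives follicle growth and ovulation. The Untreated group was 5 mice given saline and collected at the same time. The strain, the sex, the sort for CD45 and the tissue were common to both groups, and the preparation and dose of gonadotropin were not given in the sources used here. Each mouse was tagged with a TotalSeq-B hashtag antibody, and a group of 5 went into 1 pooled Chromium library, so treatment and library cannot be told apart. After filters, 2423 Gonadotropin and 2495 Untreated cells were kept, with 2559097 to 7097779 unique molecular identifiers (UMIs, counted transcripts) per mouse. Of all barcodes, 4 occurred in both pools, 2 of them among the kept cells.

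Cells were assigned to types by counts of marker genes, and the word "like" is used because the assignment rests on transcripts. Follicular-type B-like cells (marked by Fcer2a, Cr2 and Ighd) numbered 746 in the Gonadotropin and 751 in the Untreated group, and B-1-type B-like cells (Zbtb32, Bhlhe41, Il5ra and others) 223 and 481. CD4 T-like cells numbered 218 and 231, CD8 T-like cells 175 and 207, natural killer (NK)-like cells 362 and 180, and macrophage- and monocyte-like cells 207 and 130. The gates left 492 and 515 cells without a type. Over all cells of a mouse, 6 markers of granulosa cells, the hormone-producing cells of the follicle, took at most 0.000192% of UMIs, with 1 of them at 0. A mouse entered the tests of a type with at least 20 cells of it, which left 4 Untreated mice for CD8 T-like and 3 for macrophage- and monocyte-like cells. Sums over all CD45+ cells read the mix of cell types together with expression, and fewer cells of a type cannot be told apart there from less RNA per cell.

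Complexes I and II pass electrons from NADH and succinate to ubiquinone, complex III passes them to cytochrome c, and complex IV passes them to oxygen. Complexes I, III and IV pump protons out of the mitochondrial matrix, and complex V, the ATP synthase, lets them return and makes ATP. Complex II is wholly encoded in the nucleus, whereas the other 4 combine nuclear subunits with a few subunits that the mitochondrial genome encodes and the mitochondrion itself transcribes and translates. Leukocytes differ in their use of this pathway. B-1 cells are long-lived, self-renewing B cells of body cavities and tissues, and macrophages are tissue phagocytes, while resting follicular B cells are small, quiescent cells.

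The first question was how the chain was expressed across the leukocyte types of the ovary. By mean over the mice of both groups, follicular-type B-like cells gave the lowest summed share of the nuclear genes. B-1-type B-like cells gave the highest share of the mitochondrial genes, whereas NK-like cells combined a high nuclear with the lowest mitochondrial share. The 94 nuclear genes together took 1.11% ± 0.085 of a mouse's UMIs in follicular-type B-like cells (mean ± SD, n = 10, range 0.971 to 1.25). B-1-type B-like cells stood at 1.23% ± 0.076, CD4 T-like cells at 1.29% ± 0.048 and CD8 T-like cells at 1.29% ± 0.045 (SD, n = 10 each). In Gonadotropin mice the nuclear share ran from 0.971% to 1.11% in follicular-type and from 1.17% to 1.30% in B-1-type B-like cells. In Untreated mice it ran from 1.13% to 1.25% and from 1.10% to 1.35%, which overlapped. There, B-1-type B-like cells lay lower in mouse 1 (1.10% against 1.13%) and in mouse 2 (1.21% against 1.22%). Macrophage- and monocyte-like cells stood at 1.66% ± 0.14 (range 1.47 to 1.87) and NK-like cells at 1.67% ± 0.084 (range 1.52 to 1.81). The ranges of both types lay above those of all 4 B and T types, and they overlapped with each other, as did the neighbours among the lymphocytes of the adaptive arm.

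The 13 mitochondrial genes gave another order. Their summed share was 1.34% ± 0.12 of UMIs in NK-like cells (SD, n = 10, range 1.24 to 1.66) and 1.71% ± 0.095 in macrophage- and monocyte-like cells (range 1.59 to 1.87). It was 2.12% ± 0.15 in CD4 T-like, 2.15% ± 0.16 in follicular-type B-like and 2.25% ± 0.10 in CD8 T-like cells, whose ranges overlapped. B-1-type B-like cells stood at 2.97% ± 0.10 (range 2.82 to 3.13), above every mouse of every other type. Each mouse thus gave 0.802 mitochondrial UMIs per nuclear UMI of the chain in NK-like cells (range 0.714 to 0.942) and 2.42 in B-1-type B-like cells (range 2.19 to 2.78). The value was 1.03 in macrophage- and monocyte-like, 1.65 in CD4 T-like, 1.75 in CD8 T-like and 1.94 in follicular-type B-like cells. The share of 84 ribosomal protein genes, given as a measure of the rest of the library, was 15.3% in NK-like and 15.6% in macrophage- and monocyte-like cells, 22.7% in follicular-type and 28.9% in B-1-type B-like cells, and 28.8% and 31.8% in CD4 and CD8 T-like cells. Its part in the shares of the chain was not tested. The plot of summed shares by mouse shows both sets.

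**Figure D1:**
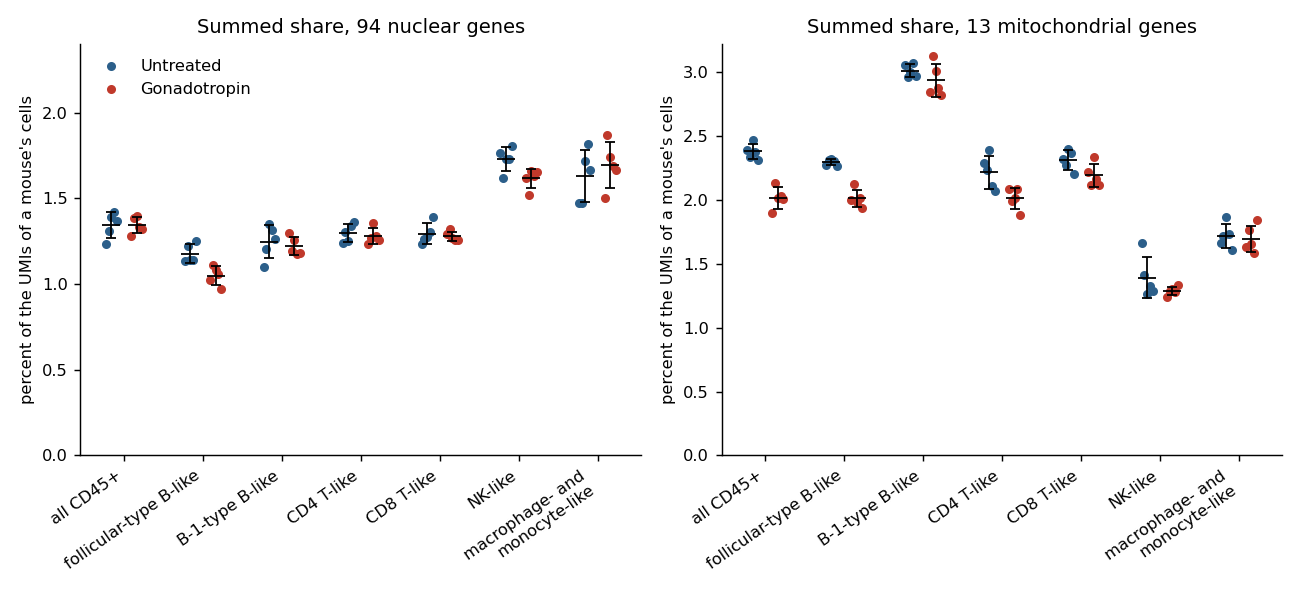
Summed share of the 94 nuclear (left) and 13 mitochondrial (right) respiratory chain genes, in percent of the UMIs of a mouse's cells, for all CD45+ cells and each gated type. Points are mice, bars are the mean and SD; the mitochondrial share of B-1-type B-like cells (2.97%) and the nuclear shares of NK-like and macrophage- and monocyte-like cells (1.67% and 1.66%) stand highest.

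Single genes followed the sets. Over 13 mitochondrial genes the type with the highest mean level was B-1-type B-like in 13, and the lowest was NK-like in 12 and macrophage- and monocyte-like in 1. The ratio of the highest to the lowest type lay between 1.69 and 2.50, with a median of 2.17. Of the 84 nuclear genes with at least 500 UMIs and a value above 0 in every type, 37 were highest in macrophage- and monocyte-like and 35 in NK-like cells, and 47 were lowest in follicular-type B-like cells, with ratios of 1.22 to 3.70 and a median of 1.77. The hinge protein gene of complex III, Uqcrh, was the most even. The assembly factors differed in evenness, with Ndufaf5 at a ratio of 3.70 and Ndufaf8 at 1.27. Ndufaf5 had 503 UMIs in all kept cells, close to the floor of 500, and Ndufaf8 had 2214, so the ratio of Ndufaf5 rests on sparse counts. Ndufaf5, a complex I assembly factor, had 17.0 UMIs per 1000000 in CD4 T-like and 4.61 in macrophage- and monocyte-like cells, and Ndufb8, a subunit of the membrane arm, had 193 in macrophage- and monocyte-like and 71.3 in CD8 T-like cells. Of the UMIs of the nuclear set, 29.1% to 30.2% came from complex I and 29.9% to 31.6% from complex V in the 6 types. Complex IV differed more, from 21.7% ± 0.80 in CD4 T-like to 25.3% ± 0.86 in NK-like cells. Complex III ran from 8.72% ± 0.39 in NK-like to 10.1% ± 0.38 in macrophage- and monocyte-like cells. The assembly factors ran from 0.961% ± 0.18 in macrophage- and monocyte-like to 1.70% ± 0.16 in follicular-type B-like cells (SD, n = 10 each).

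B-1-type and follicular-type B-like cells were next compared within the same 10 mice. Their cells differed in depth, with a median of 12939.5 UMIs in B-1-type and 5844 in follicular-type cells, and the gates asked for 10 and 3 marker UMIs. The part of depth in this contrast was not tested. B-1-type B-like cells had higher levels of 12 of the 13 mitochondrial genes and of 48 of the 85 nuclear genes tested, and a lower level of 1 nuclear gene, Sdha. The background over all 7498 genes tested was 22.1% higher and 20.7% lower (edgeR quasi-likelihood test with the mouse as a term, adjusted p under 0.05). The median log2 fold change was 0.24 over the nuclear and 0.59 over the mitochondrial genes, beside -0.01 over all genes. Ribosomal protein genes moved the same way, 79 of 81 higher with a median of 0.50, and their part was not tested. With plain UMI totals in place of scaled library sizes the nuclear count was 29, of which 25 were higher and 4 lower, and the median of all genes shifted by -0.17.

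Among the mitochondrial genes, mt-Cytb, the cytochrome b of complex III, ran from 2779 to 3449 CPM (UMIs of the gene per 1000000 UMIs of the library, here with scaled library sizes) in B-1-type cells with a median of 3122, and from 1757 to 2027 with a median of 1924 in follicular-type cells. No value overlapped, and the log2 fold change was 0.70 (SE 0.056; edgeR adjusted p = 3.82e-12). The complex IV subunit mt-Co3 also differed by 0.70, and the groups did not overlap for 10 of the 13 genes (9.16% of all genes tested). The exception was mt-Nd6, the subunit read from the other strand of the mitochondrial DNA, at 0.22 (adjusted p = 0.238), higher in 8 of 10 mice where the other 12 genes were higher in 10 of 10.

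Of the nuclear genes, 18 of 37 tested for complex I were higher, 6 of 8 for complex III, 9 of 10 for complex IV and 12 of 17 for complex V. Of the 7 assembly factors 1 was higher, and of the 4 genes of complex II 1 was higher and 1 lower. Sdhd, the membrane anchor of complex II that holds its ubiquinone site with Sdhc (chromosome 9, 50596340 to 50603849, GRCm38.p6), had 26.3, 36.0 and 48.9 CPM as the lowest, median and highest B-1-type value and 14.8, 23.1 and 28.7 in follicular-type cells. It was higher in B-1-type cells in 10 of 10 mice, by 0.71 on the log2 scale (SE 0.138; edgeR adjusted p = 8.83e-05). Sdha, the flavoprotein that oxidises succinate in the same complex, was lower in 9 of 10 mice, at -0.22 (edgeR adjusted p = 0.0447). The 2 subunits of complex II thus pointed in opposite directions.

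Atp5g2 (chromosome 15, 102662868 to 102671047), which encodes the proton-carrying c subunit, ran from 434 to 622 CPM with a median of 490 in B-1-type and from 314 to 388 with a median of 348 in follicular-type cells. These ranges did not overlap, and the log2 fold change was 0.49 (SE 0.063; edgeR adjusted p = 1.10e-07). Its paralog Atp5g1, which encodes the same mature protein, was higher by 0.56, with B-1-type values of 131 to 260 and follicular-type values of 104 to 154 CPM. Atp5b, the catalytic beta subunit, rose by 0.24 (edgeR adjusted p = 0.0170). Other members with the largest changes were the complex IV subunit Cox7b (0.55), the complex III subunits Uqcr11 (0.53) and Uqcr10 (0.46), the complex I subunits Ndufa8 (0.50), Ndufs8 (0.49) and Ndufa13 (0.49), and Atp5j2 (0.47). The complex IV subunits Cox5a (0.36) and Cox4i1 (0.26) and, in complex III, Uqcrfs1, the Rieske iron-sulfur protein (0.24), were higher as well.

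Genes around the chain, taken from 3 lists of the pathway, were read in the same contrast. Of 28 tested assembly and carrier genes 12 were higher and 0 lower. Slc25a4, the ADP/ATP carrier that exchanges the product of complex V across the inner membrane, had 114, 155 and 178 CPM as the lowest, median and highest B-1-type value and 43.0, 61.5 and 78.3 in follicular-type cells. It was higher by 1.30 (SE 0.093; edgeR adjusted p = 2.43e-13). The mitochondrial carrier Ucp2 was higher by 0.86 and the complex III assembly factor Uqcc2 by 0.72, each in 10 of 10 mice. Of 13 tested tricarboxylic acid cycle genes 2 were higher, Suclg2 (0.53) and Suclg1 (0.45), and 1 lower, Fh1 (-0.72). Of 12 tested genes for mitochondrial DNA and its transcription 1 was higher and 3 lower, the polymerase accessory subunit Polg2 at -0.73 among them.

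NK-like and CD8 T-like cells, both cytotoxic lymphocytes, were compared in 9 mice, at median depths of 6739 and 9375.5 UMIs per cell. The gate for CD8 T-like cells set no limit on NK markers. The mitochondrial genes were lower in NK-like cells in 12 of 12 tested, against a background of 22.1% lower, with a median log2 fold change of -1.0. The nuclear genes were divided, with 16 of 80 higher and 9 lower against a background of 23.0% and 22.1%, so neither share stood above that of all genes. With plain UMI totals 52 nuclear genes were higher and 3 lower, and the median of all genes shifted by 0.35, so the nuclear count depends on the scaling. Ribosomal protein genes were lower in 79 of 81, with a median of -1.36, and their part was not tested.

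The complex III gene mt-Cytb had 927, 1072 and 1577 CPM as the lowest, median and highest value in NK-like cells and 2179, 2488 and 3032 in CD8 T-like cells, a log2 fold change of -1.18 (SE 0.062; edgeR adjusted p = 7.83e-14). The changes of the other 11 ran from -1.13 for mt-Co3 to -0.66 for mt-Nd3, each with lower values in 9 of 9 mice. For 11 of the 12 the ranges did not overlap (16.9% of all genes tested). The mitochondrial genes of all 4 complexes that have them were thus lower.

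Of the nuclear genes, Cox7a2l differed most. It encodes the factor that links complexes III and IV into supercomplexes, and C57BL/6 mice are known to carry a shortened form of the protein. On chromosome 17 (83501917 to 83514333), it had 146, 176 and 227 CPM as the lowest, median and highest NK-like value and 400, 503 and 623 in CD8 T-like cells. The ranges were far apart, and the log2 fold change was -1.45 (SE 0.084; edgeR adjusted p = 4.51e-13). Ndufb7, a complex I subunit of the membrane arm (chromosome 8, 83566758 to 83571623), went the other way, with 195, 243 and 297 against 111, 145 and 166 CPM and a log2 fold change of 0.81 (SE 0.102; edgeR adjusted p = 4.49e-07). Both genes kept their direction with plain UMI totals.

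With scaled library sizes, paired subunits of single complexes also split. With plain UMI totals fewer nuclear genes were lower, as given above, so the calls of lower nuclear genes here depend on the scaling. In complex III, Uqcrb was higher in NK-like cells (0.68) and the hinge protein Uqcrh lower (-0.56). The NK-like values of Uqcrh ran from 367 to 516 CPM and the CD8 T-like values from 553 to 802. In complex I, Ndufb6 (0.64) and Ndufb8 (0.60) were higher, and Ndufv1, the NADH-binding flavoprotein (-0.57), and the assembly factor Ndufaf4 (-0.68) lower. Cox5b of complex IV was higher (0.57, 283 to 400 against 170 to 258 CPM), Sdhb, the iron-sulfur subunit of complex II, was higher (0.35), and Atp5g2 lower (-0.56). Among 18 tested assembly and carrier genes 2 were higher and 2 lower. Cycs, the cytochrome c that carries electrons from complex III to IV, was higher by 1.04, with 127, 190 and 251 CPM against 56.6, 101 and 120. Slc25a4 was lower, with 32.8, 44.3 and 95.7 CPM in NK-like and 171, 210 and 253 in CD8 T-like cells, a log2 fold change of -2.03 (SE 0.147; edgeR adjusted p = 3.09e-11). Of 12 tested tricarboxylic acid cycle genes 0 passed in edgeR, and of 7 tested genes for mitochondrial DNA and transcription 1 was lower, Tfb2m (-0.57).

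Macrophage- and monocyte-like cells were compared with follicular-type B-like cells in the 8 mice that had both, at median depths of 9650 and 5844 UMIs per cell. They had higher levels of 64 of 82 nuclear genes and lower levels of 2, while 11 of 13 mitochondrial genes were lower and 0 higher. The background over 6494 genes was 32.4% higher and 33.3% lower. The median log2 fold change was 0.60 for nuclear and -0.43 for mitochondrial genes, beside -0.04 over all genes. Higher levels were called for 28 of 37 genes of complex I, 3 of 4 of complex II, 6 of 8 of complex III, 10 of 10 of complex IV and 14 of 17 of complex V, and for 1 of 4 assembly factors, of which 2 were lower. Ribosomal protein genes were lower in 64 of 81, with a median of -0.47.

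Cox5a, a nuclear-encoded subunit of complex IV (chromosome 9, 57517328 to 57532427), had 280, 363 and 461 CPM as the lowest, median and highest macrophage- and monocyte-like value and 121, 147 and 169 in follicular-type B-like cells. It was higher in 8 of 8 mice, by 1.26 (SE 0.117; edgeR adjusted p = 1.47e-09). Cox4i1, the subunit at which complex IV is regulated by ATP, stood at 643 to 884 against 403 to 496 CPM and was higher by 0.80. Of complex III, Uqcrq (1.20), Uqcr11 (1.15), Uqcrb (1.11), Uqcr10 (1.03), Uqcrfs1 (0.60) and Uqcrc1 (0.46) were higher. Sdhd was higher by 1.13, with 39.4, 49.9 and 78.1 against 15.9, 24.2 and 27.2 CPM, and its partner Sdhb by 0.79. Ndufb8 (1.05) and Ndufc2 (0.96) led the complex I subunits. The assembly factors of complex I went both ways, with Ndufaf7 at 1.21, Ndufaf4 at -0.72 and Ndufaf2 at -1.26.

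The mitochondrial genes that fell ranged from mt-Nd4 (-0.17) to mt-Atp8 (-0.70). The complex I gene mt-Nd5 had 281, 323 and 381 CPM against 417, 479 and 659, a log2 fold change of -0.65 (SE 0.096; edgeR adjusted p = 2.80e-06), and mt-Cytb stood at -0.55. Neither mt-Nd4l (-0.18, adjusted p = 0.194) nor mt-Nd6 (-0.43, adjusted p = 0.170) passed. Ranges did not overlap for 6 of the 13 (35.2% of all genes tested). The call for mt-Nd4 was lost with DESeq2 (adjusted p = 0.0832). The plot of type contrasts by complex shows the nuclear and mitochondrial genes on opposite sides of 0 in this contrast.

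In the surrounding lists, 8 of 20 assembly and carrier genes were higher and 4 lower in macrophage- and monocyte-like cells. The largest changes were those of Ucp2 (1.47, 578 to 815 against 210 to 277 CPM), Uqcc2 (1.44), the ADP/ATP carrier Slc25a5 (1.15) and Cycs (1.13). Of 12 tricarboxylic acid cycle genes 2 were higher and 3 lower, and the GTP-forming succinyl-CoA ligase subunit Suclg2 had the largest change, with 10.4, 28.1 and 35.9 against 51.3, 63.2 and 79.2 CPM (-1.29). Of 9 genes for mitochondrial DNA and its transcription 2 were higher and 5 lower. Tfam, which packages mitochondrial DNA and starts its transcription, had 17.2, 25.3 and 39.4 CPM against 46.4, 67.4 and 79.7, a log2 fold change of -1.31 (SE 0.178; edgeR adjusted p = 8.28e-07). It was lower in 8 of 8 mice. In B-1-type over follicular-type B-like cells Tfam did not pass.

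**Figure D2:**
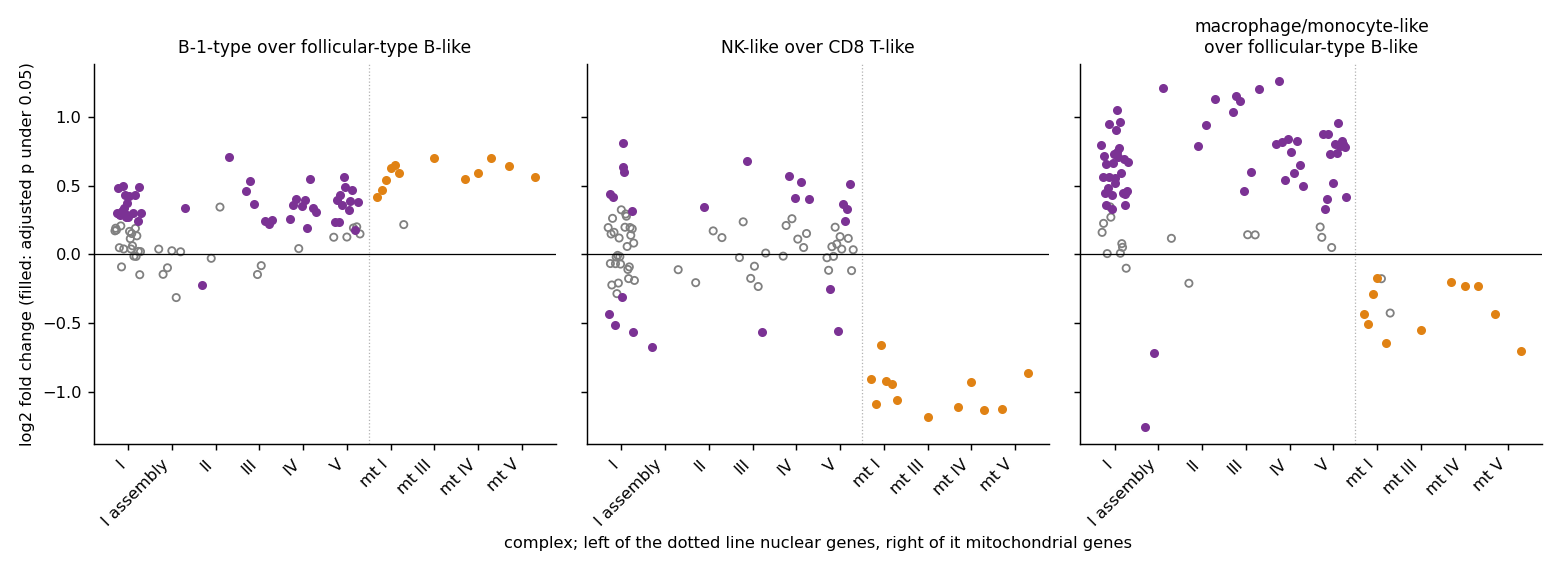
Log2 fold changes of single genes (1 point each) in the 3 type contrasts, by complex, nuclear genes left and mitochondrial genes right of the dotted line; filled points passed edgeR at an adjusted p under 0.05. Ndufb1-ps and Cox7a2l are not drawn; the mitochondrial genes lie above 0 in B-1-type B-like cells (median 0.59) and below 0 in NK-like cells (median -1.0) and macrophage- and monocyte-like cells (median -0.43).

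Many genes of this set are known to carry sites for NRF1, for ETS factors such as GABP and for YY1 near their start. Of the 94 nuclear members 77 had a promoter entry in RefSeq (GRCm38.p6, 250 bases before to 50 after the start). The letters CCGGAAG, an ETS site, were found on either strand in 19 of these 77 (24.7%) and in 9.93% of the 27025 genes with an entry. GCGCATG, the core of an NRF1 site, was found in 15 (19.5%) against 4.41%, and AAGATGG, the core of a YY1 site, in 12 (15.6%) against 7.28%. A match describes the sequence and is not a binding site. The 200 bases before the start are printed for 6 genes that differed between types, read 5′ to 3′ on the strand of the gene, with matches to any of the 3 motifs, on either strand, in capitals. The genes were picked with their matches known, so the share of them with a match does not stand for the set. Sdhd (chr9:50603850-50604049, minus strand) and Uqcr11 (chr10:80406822-80407021, minus strand), both higher in B-1-type and in macrophage- and monocyte-like cells, and Ndufb7 (chr8:83566558-83566757, plus strand), higher in NK-like cells, held the ETS letters. Atp5g2 (chr15:102671048-102671247, minus strand) held the NRF1 letters on both strands, overlapping, and the printed windows of Uqcrc1 (chr9:108936448-108936647, plus strand), higher in macrophage- and monocyte-like cells, and of Cox7a2l (chr17:83514334-83514533, minus strand), lower in NK-like cells, held none of the 3 motifs. In the longer window used for the counts, Uqcrc1 and Uqcr11 also held the NRF1 letters, which do not lie wholly within the printed 200 bases.
Sdhd: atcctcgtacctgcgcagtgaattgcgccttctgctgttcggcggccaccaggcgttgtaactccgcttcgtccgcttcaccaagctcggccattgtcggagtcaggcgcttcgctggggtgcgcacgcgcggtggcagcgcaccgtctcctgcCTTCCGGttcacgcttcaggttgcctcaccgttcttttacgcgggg
Uqcr11: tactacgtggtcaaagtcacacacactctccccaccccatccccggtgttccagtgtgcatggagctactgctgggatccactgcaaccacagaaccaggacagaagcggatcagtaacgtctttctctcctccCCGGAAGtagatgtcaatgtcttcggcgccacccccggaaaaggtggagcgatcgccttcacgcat
Ndufb7: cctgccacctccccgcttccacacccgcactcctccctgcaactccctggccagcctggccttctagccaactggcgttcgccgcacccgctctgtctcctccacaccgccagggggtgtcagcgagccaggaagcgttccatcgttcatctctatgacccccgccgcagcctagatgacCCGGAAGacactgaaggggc
Atp5g2: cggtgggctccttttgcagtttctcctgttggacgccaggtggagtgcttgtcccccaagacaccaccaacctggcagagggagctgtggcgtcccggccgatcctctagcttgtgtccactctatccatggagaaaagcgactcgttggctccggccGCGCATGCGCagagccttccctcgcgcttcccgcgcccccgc
Uqcrc1: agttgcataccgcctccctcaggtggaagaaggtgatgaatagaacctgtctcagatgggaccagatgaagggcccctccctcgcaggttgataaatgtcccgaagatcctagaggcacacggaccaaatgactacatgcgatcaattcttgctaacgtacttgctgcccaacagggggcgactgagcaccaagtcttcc
Cox7a2l: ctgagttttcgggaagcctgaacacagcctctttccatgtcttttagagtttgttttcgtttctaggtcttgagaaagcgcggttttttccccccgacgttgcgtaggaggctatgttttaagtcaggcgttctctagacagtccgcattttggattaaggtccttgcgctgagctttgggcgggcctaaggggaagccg

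Several complex IV subunits have paralogs known to be restricted to certain tissues. In these leukocytes Cox4i1, Cox7a2, Cox8a and Cox6b1 were counted widely, whereas Cox4i2, Cox8b and Cox8c had 0 UMIs, Cox7a1 had 25 and Cox6b2 95. Cox4i1 had a mean of 715 UMIs per 1000000 in macrophage- and monocyte-like, 558 in NK-like and 413 in follicular-type B-like cells. Cox7a2 stood at 362 in NK-like, 275 in macrophage- and monocyte-like, 203 in CD8 T-like, 198 in CD4 T-like, 190 in B-1-type and 181 in follicular-type B-like cells. Cox7a2l, named for its likeness to Cox7a2, had another order, with 417 ± 51 in CD8 T-like, 402 ± 25 in CD4 T-like, 303 ± 53 in macrophage- and monocyte-like, 277 ± 26 in B-1-type, 258 ± 31 in follicular-type and 190 ± 27 in NK-like cells (SD; n = 9 mice for CD8 T-like, 8 for macrophage- and monocyte-like and 10 for the other cells). The mean ± SD of CD8 and CD4 T-like cells overlapped, as did those of the middle 3. These spreads leave out that the types come from the same mice, and CD8 T-like cells were not tested against CD4 T-like cells. NK-like cells, highest for Cox7a2, were thus lowest for Cox7a2l.

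Cox6a2, known as the form of the complex IV subunit 6A of heart and skeletal muscle (chromosome 7, 128205435 to 128206366), was concentrated in a handful of cells. Of its 527 UMIs, 96.0% lay in 30 cells with at least 10 UMIs of Siglech, a receptor known from plasmacytoid dendritic cells. This threshold was chosen after the values were seen, and the following values are a description with no test. A Cox6a2 UMI was found in 29 of the 30 cells (96.7%, exact Clopper-Pearson 95% interval 82.8 to 99.9), with a median of 17.5 per cell at a median depth of 12163 UMIs. Of the other 4888 cells 0.348% had 1 (interval 0.203 to 0.556) at a median depth of 7294 UMIs, which is the background of this readout. Both intervals pool the cells of all mice, cover counting error only and leave out the spread between mice. Summed, Cox6a2 stood at 1428 UMIs per 1000000 in the 30 cells and 0.506 in the others.

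From the side of Cox6a2 the picture was the same. The 27 cells with at least 3 Cox6a2 UMIs all had at least 17 Siglech UMIs. Cells with at least 10 Siglech UMIs came from 9 of 10 mice. In the Gonadotropin mice they gave 110, 44, 18, 134 and 23 Cox6a2 UMIs, from 8, 1, 1, 7 and 1 cells. In the Untreated mice they gave 0, 57, 15, 57 and 48, from 0, 4, 2, 3 and 3 cells. The sums thus follow the number of cells and are not levels per cell. The paralog Cox6a1 was counted in both classes, at 197 UMIs per 1000000 in the 30 cells and 147 in the others, and Cox4i1 at 869 and 493. The nuclear genes took 1.92% and the mitochondrial genes 2.62% of the UMIs of the 30 cells.

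The second question was what differed after gonadotropin. Over all CD45+ cells the mitochondrial genes were lower and the nuclear genes were nearly level. The mitochondrial share was 2.02% ± 0.084 in Gonadotropin mice (range 1.89 to 2.13) and 2.38% ± 0.060 in Untreated mice (range 2.31 to 2.47; SD, n = 5 each), with no overlap. The nuclear share was 1.34% ± 0.046 and 1.34% ± 0.074, with overlapping ranges. Of the 13 mitochondrial genes 12 were lower, against 4.15% of all genes tested, and for 12 the groups did not overlap (8.66% of all genes). Of 88 nuclear genes tested 0 were higher and 1 lower, against 4.97% and 4.15% of all genes. An unadjusted p under 0.05 was found for 10, and DESeq2 called 3, counts that have no share of all genes beside them. The nuclear median was -0.06 on the log2 scale, with 65 of 88 negative, beside -0.003 for all genes.

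The largest changes were those of 3 genes. The ATP synthase gene mt-Atp8 stood at 85.6 ± 5.0 CPM in Gonadotropin and 135 ± 5.4 in Untreated mice (SD, n = 5 each), a log2 fold change of -0.66 (SE 0.057; edgeR adjusted p = 0.000119). The complex I gene mt-Nd4l had 174, 206, 178, 187 and 192 CPM in the Gonadotropin and 290, 289, 286, 284 and 283 in the Untreated mice, and all values of the first group lay below those of the other. It fell by 0.61 on the log2 scale (SE 0.053; edgeR adjusted p = 0.000119). Another complex I gene, mt-Nd5, had 362, 425, 385, 382 and 397 against 577, 563, 616, 563 and 541 CPM, a fall of 0.55 with no overlap (edgeR adjusted p = 0.000461). The rest that passed lay between mt-Nd6 at -0.41 and mt-Co3 at -0.21, with mt-Nd4 at -0.37, mt-Atp6 at -0.32, mt-Co1, mt-Nd2, mt-Cytb and mt-Nd3 at -0.30 and mt-Co2 at -0.28. The complex I gene mt-Nd1 did not pass (-0.15, edgeR adjusted p = 0.101; 0.0303 in DESeq2).

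The cell mix moved with this comparison. B-1-type B-like cells, the type with the highest mitochondrial share, were 223 of the Gonadotropin and 481 of the Untreated cells, and NK-like cells, the lowest, 362 and 180. The 7 B-1 markers, all counted, took 0.0389% to 0.0782% of UMIs in Gonadotropin and 0.0971% to 0.144% in Untreated mice, and the 7 NK markers, all counted, 0.0499% to 0.142% and 0.0376% to 0.0622%. When equal numbers of each gated type were drawn per mouse (69 follicular-type and 21 B-1-type B-like, 28 CD4 T-like, 18 CD8 T-like, 25 NK-like and 14 macrophage- and monocyte-like cells), 3 mitochondrial genes passed in place of 12. These were mt-Atp8 (-0.44, edgeR adjusted p = 0.0144), mt-Nd4l (-0.42, adjusted p = 0.00467) and mt-Nd5 (-0.29, adjusted p = 0.0283). In this draw mt-Nd1 (0.08) and mt-Co3 (0.01) had the opposite sign and did not pass. This was a single random draw, and cells without a type were left out of it. The draw also holds fewer cells, and the part of depth in the lost calls was not tested.

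The nuclear gene that passed was Atp5d, the delta subunit of the ATP synthase rotor stalk (chromosome 10, 80138698 to 80145828). It had 205, 215, 200, 202 and 198 CPM in Gonadotropin and 217, 226, 236, 239 and 244 in Untreated mice, which did not overlap. The log2 fold change was -0.19 (SE 0.050; edgeR adjusted p = 0.0352). The call was lost without a filter on low counts (adjusted p = 0.0781), with plain UMI totals (0.152), in the equal draw of cells (0.148) and in 8 of the 10 fits that left out 1 mouse (adjusted p up to 0.0850). Of the 35 assembly and carrier genes 1 was lower, the complex IV assembly factor Cox20 (-0.35, edgeR adjusted p = 0.00939). Of the 16 tested genes for mitochondrial DNA and its transcription 1 was lower, the single-stranded DNA binding protein Ssbp1 (-0.32, edgeR adjusted p = 0.0208). Neither passed in the equal draw (adjusted p = 0.184 and 0.570). Of the 13 tricarboxylic acid cycle genes 0 passed in edgeR.

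Other measures moved with the groups over all CD45+ cells. Of the UMIs, 20.7% to 24.1% came from the 84 ribosomal protein genes after gonadotropin, against 25.1% to 27.9% without it. The 5 erythrocyte markers (Hbb-bs, Hbb-bt, Hba-a1, Hba-a2 and Alas2), all of which were counted, took 0.00473% to 2.0% in Gonadotropin and at most 0.000614% in Untreated mice. With library sizes that leave out these 5 genes the calls were the same in number, 12 mitochondrial and 1 nuclear. The 10 genes known to respond to tissue dissociation took 0.177% to 0.236% against 0.224% to 0.246%. The part of the ribosomal and dissociation genes in the result was not tested.

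Within follicular-type B-like cells, the type with the most cells, both sets lay lower by share in Gonadotropin mice. The nuclear share was 1.05% ± 0.054 (range 0.971 to 1.11) against 1.18% ± 0.055 (range 1.13 to 1.25), and the mitochondrial share 2.01% ± 0.070 (range 1.94 to 2.13) against 2.30% ± 0.023 (range 2.27 to 2.32; SD, n = 5 each). Neither overlapped. Erythrocyte markers took 0.00613% to 8.19% of UMIs in these cells of Gonadotropin and at most 0.000961% in those of Untreated mice. Without them in the denominator the nuclear share was 1.09% (range 1.06 to 1.11) against 1.18% and the mitochondrial share 2.09% (range 2.03 to 2.13) against 2.30%, still without overlap. Ribosomal protein genes took 21.7% and 23.7%, with overlapping ranges. The 7 B-1 markers took 0.0302% to 0.0399% and 0.0278% to 0.0418%, and the 7 NK markers, 1 of them at 0, at most 0.000475% in any mouse.

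By gene, 4 of the 13 mitochondrial genes were lower in follicular-type B-like cells, against 0.543% of all 7371 genes tested. The complex I gene mt-Nd5 had 464, 466, 423, 431 and 408 CPM in Gonadotropin and 560, 547, 642, 648 and 575 in Untreated mice, a fall of 0.42 with no overlap (SE 0.070; edgeR adjusted p = 0.000539). The gene mt-Nd4l had 190, 185, 182, 197 and 153 against 241, 279, 242, 233 and 270 CPM, a fall of 0.49 (edgeR adjusted p = 0.00202). The gene mt-Atp8 had 99.4, 94.2, 84.6, 97.3 and 73.2 against 139, 138, 110, 130 and 149 CPM, a fall of 0.57 (edgeR adjusted p = 0.00311). These are the same 3 genes as in the equal draw over all cells. That draw holds 69 follicular-type B-like cells of each of the same mice, so it is not an independent result. The fourth, mt-Nd4, stood at 1314 to 1409 against 1607 to 1707 CPM and fell by 0.26 (edgeR adjusted p = 0.00851). All 13 log2 fold changes were negative, 8 had an unadjusted p under 0.05, DESeq2 called 6, and the groups did not overlap for 7 (2.89% of all genes). The values of mt-Co3 and mt-Nd1 were both -0.05.

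Of the 86 nuclear genes tested in follicular-type B-like cells edgeR called 0, 18 had an unadjusted p under 0.05 and DESeq2 called 0. The background, at an edgeR adjusted p under 0.05, was 0.570% higher and 0.543% lower. It does not apply to the unadjusted count, which has no share of all genes beside it. The log2 fold change was negative for 73 of the 86, with a median of -0.16 beside 0.004 for all genes, and in complex V it was negative for 17 of 17. The smallest p belonged to Atp5g1, with 119, 119, 110, 117 and 112 CPM in Gonadotropin and 130, 146, 162, 149 and 157 in Untreated mice (-0.35, SE 0.095, edgeR adjusted p = 0.0573). The groups did not overlap, yet the gene did not pass over all genes. Atp5md, a small membrane subunit of the same complex (-0.36, adjusted p = 0.0758), and the complex I subunit Ndufb10 (-0.32, adjusted p = 0.123) followed. None of the 3 surrounding lists held a gene that passed in edgeR here.

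In CD8 T-like cells mt-Nd4l was the gene of the chain that passed. It had 220, 242, 226, 224 and 240 CPM in Gonadotropin and 356, 321, 324 and 317 in Untreated mice, with no overlap, and fell by 0.52 (SE 0.118; edgeR adjusted p = 0.0223; background 0.727% higher and 0.531% lower). The call was lost with 1 more marker UMI in the gate (adjusted p = 0.0540) and without Gonadotropin mouse 1 or 4 or Untreated mouse 1 or 2 (adjusted p 0.0544, 0.0605, 0.102 and 0.0711). In these cells the 7 NK markers, 1 of them at 0, took 0.0110% to 0.0511% of UMIs in Gonadotropin and 0.00303% to 0.00945% in Untreated mice, without overlap, and their part in the result was not tested. The CD8 T gate set no limit on NK markers. Of the 13 mitochondrial genes 12 were negative, 6 had an unadjusted p under 0.05, DESeq2 called 1, and the groups did not overlap for 3 (4.11% of all genes). Of 79 nuclear genes edgeR called 0, with 6 at an unadjusted p under 0.05 and 0 in DESeq2. The smallest p belonged to the complex I assembly factor Ndufaf8 (-0.62), the ATP synthase subunit Atp5e (-0.25) and the complex I subunit Ndufb4 (-0.46).

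The remaining types gave no call in edgeR. Ribosomal protein genes took 22.7% to 29.1% and 28.8% to 33.0% of UMIs in B-1-type B-like cells of Gonadotropin and Untreated mice, and their part was not tested. In B-1-type B-like cells the gene mt-Nd4l had 273, 279, 262, 254 and 257 CPM in Gonadotropin and 343, 347, 368, 368 and 350 in Untreated mice, which did not overlap. Its log2 fold change was -0.43 (edgeR adjusted p = 0.0531; DESeq2 adjusted p = 0.00205). It passed in edgeR without a filter on low counts (0.0211) and with 1 more marker UMI in the gate (0.0427). Values for mt-Nd5 (-0.34), mt-Atp8 (-0.30) and mt-Nd4 (-0.12) were negative. At an unadjusted p under 0.05 stood 3 mitochondrial and 1 of 86 nuclear genes, and DESeq2 called 2 and 0. The background, at an edgeR adjusted p under 0.05, was 0.119% higher and 0.132% lower and does not apply to these counts. The groups did not overlap for 2 mitochondrial genes (1.87% of all genes). The 3 nuclear genes with the smallest p were Atp5d (-0.24) and the complex I flavoprotein subunits Ndufv2 (-0.31) and Ndufv3 (-0.29).

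In CD4 T-like cells the gene mt-Nd4l had 197, 251, 192, 228 and 172 CPM against 325, 341, 309, 287 and 278, and the groups again did not overlap (-0.55, edgeR adjusted p = 0.130). The other 3 stood at -0.65 for mt-Atp8, -0.34 for mt-Nd5 and -0.27 for mt-Nd4. Of 12 mitochondrial genes 11 were negative, 7 had an unadjusted p under 0.05, and 4 did not overlap (1.86% of all genes), while DESeq2 called 0. Of 79 nuclear genes 3 had an unadjusted p under 0.05 and DESeq2 called 0. These 3 were the complex I subunits Ndufs7 (-0.55) and Ndufa6 (-0.29) and the complex II anchor Sdhc (0.69). The background, at an edgeR adjusted p under 0.05, was 0.0426% in each direction and does not apply to the unadjusted counts.

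NK-like cells gave values of mt-Nd4l of 148, 146, 159, 149 and 190 CPM in Gonadotropin and 271, 196, 144, 214 and 194 in Untreated mice, which overlapped (-0.37, edgeR adjusted p = 0.581). The genes mt-Atp8 (-0.34), mt-Nd5 (-0.30) and mt-Nd4 (-0.28) did not pass either. Of 12 mitochondrial genes 11 and of 82 nuclear genes 70 were negative, with a nuclear median of -0.17, and 5 of each set had an unadjusted p under 0.05. DESeq2 called 0 in both sets, and the groups did not overlap for 2 nuclear genes (1.66% of all genes). The background, at an edgeR adjusted p under 0.05, was 0.0185% higher and 0.00% lower and does not apply to the unadjusted counts. The smallest nuclear p belonged to Ndufaf4 (0.96), Ndufb10 (-0.45) and Ndufa3 (-0.36), all of complex I or its assembly.

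Macrophage- and monocyte-like cells, with 5 against 3 mice, showed no shared direction. Of 80 nuclear genes 50 were positive, with a median of 0.06, and of 12 mitochondrial genes 6 were negative. At an unadjusted p under 0.05 stood 2 nuclear and 1 mitochondrial gene, DESeq2 called 0, and the groups did not overlap for 5 nuclear genes (6.48% of all genes). The background, at an edgeR adjusted p under 0.05, was 0.0181% higher and 0.109% lower and does not apply to the unadjusted counts. The gene mt-Nd4l had 144, 205, 186, 132 and 187 against 311, 221 and 191 CPM, overlapping (-0.48, edgeR adjusted p = 0.512), beside mt-Atp8 at -0.47, mt-Nd4 at -0.22 and mt-Nd5 at -0.16. Of the nuclear genes Atp5g2 (0.48), Cox7a2l (0.39) and Cox4i1 (0.23) had the smallest p. Summed shares overlapped between the groups in B-1-type B-like, CD4 T-like, CD8 T-like, NK-like and macrophage- and monocyte-like cells for both sets.

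**Figure D3:**
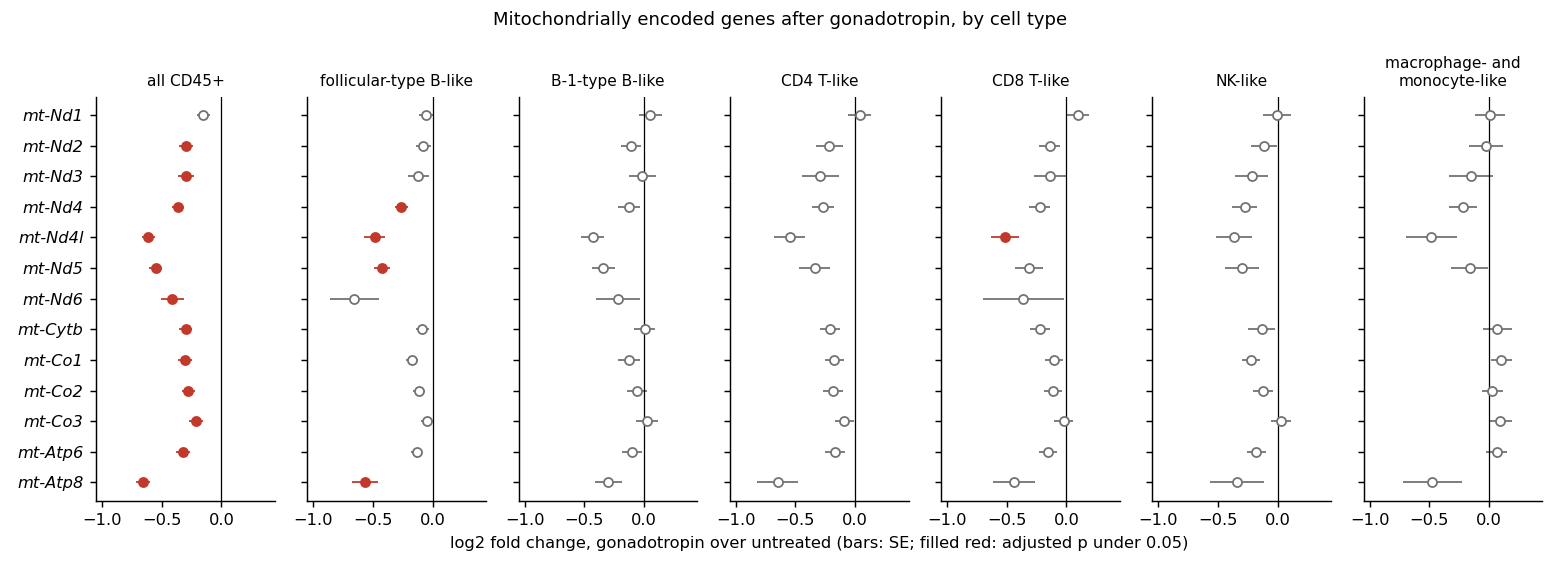
Log2 fold change (Gonadotropin over Untreated) of the 13 mitochondrial genes in all CD45+ cells and in each gated type, with bars of 1 SE; filled red points passed edgeR at an adjusted p under 0.05, and a gene that was not tested in a type has no point. Of the genes, 12 passed in all CD45+ cells, 4 in follicular-type B-like cells and 1 in CD8 T-like cells, and mt-Nd4l lies between -0.37 and -0.61 in every panel.

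Whether the change differed between types was tested as an interaction over the 5 lymphocyte types. Of 86 nuclear genes edgeR called 0, with 4 at an unadjusted p under 0.05, and of 13 mitochondrial genes 0, with 0 at that level. DESeq2 called 0 in both sets. Over all 8282 genes tested 0.0966% passed. A call in follicular-type B-like or CD8 T-like cells is therefore not shown to be particular to that type.

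Of the mitochondrial transcripts with the largest falls, mt-Atp8 and mt-Nd4l each share a messenger RNA with a partner. The genes mt-Atp8 (positions 7766 to 7969 of the mitochondrial genome, GRCm38.p6) and mt-Atp6 (7927 to 8607) overlap and are translated from a common transcript, as are mt-Nd4l (9877 to 10173) and mt-Nd4 (10167 to 11544). How reads in the overlaps were counted is not given in the sources used here, so the division of counts within a pair is uncertain. The ratio within each pair was compared in all CD45+ cells and the 6 types, 14 exact two-sided permutation tests chosen after the values were seen. With 5 against 5 mice the smallest p such a test can give is 0.00794.

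For each 100 UMIs of mt-Nd4, mt-Nd4l had 13.7 ± 0.50 in all CD45+ cells of Gonadotropin mice (range 12.9 to 14.2) and 16.2 ± 0.57 in Untreated mice (range 15.4 to 17.0; SD, n = 5 each; exact permutation p = 0.00794, adjusted p = 0.0278). In follicular-type B-like cells the ratio was 13.3 ± 1.3 (range 10.9 to 14.0) against 15.4 ± 1.2 (range 14.2 to 17.2), and in B-1-type B-like cells 13.3 ± 1.3 (range 12.2 to 15.5) against 16.2 ± 0.46 (range 15.8 to 16.8), each with the same exact permutation p and adjusted p. In these 3 comparisons the mice did not overlap. CD4 T-like cells had 14.3 against 17.5 (exact permutation adjusted p = 0.0317) and CD8 T-like cells 14.3 against 17.4 (adjusted p = 0.0556). NK-like cells had 15.0 against 15.9 and macrophage- and monocyte-like cells 13.3 against 16.1 (exact permutation p = 0.389 and 0.143). Without single mice the difference (Gonadotropin minus Untreated) ran from -2.77 to -2.36 in all CD45+ cells, from -2.46 to -1.57 in follicular-type and from -3.51 to -2.69 in B-1-type B-like cells. In each of these 10 fits the exact permutation p was 0.0159, the smallest that 4 against 5 mice can give. The adjusted p lay between 0.0370 and 0.0556, set by how many of the 14 tests reached that smallest value (4 to 6), so adjusted values above 0.05 there do not single out a mouse. In CD4 T-like cells the difference ran from -3.95 to -2.58 and the exact permutation p was 0.0159 to 0.0317 (adjusted p 0.0370 to 0.0635).

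For each 100 UMIs of mt-Atp6, mt-Atp8 had 2.11 ± 0.11 (range 2.0 to 2.23) in all CD45+ cells of Gonadotropin and 2.67 ± 0.15 (range 2.52 to 2.89) in Untreated mice (SD, n = 5 each; exact permutation p = 0.00794, adjusted p = 0.0278). Follicular-type B-like cells had 2.11 against 2.85 and CD4 T-like cells 1.86 against 2.61 (exact permutation adjusted p = 0.0317 each). Without single mice the difference ran from -0.595 to -0.502 in all CD45+ cells, with the smallest possible exact permutation p of 0.0159 in all 10 fits (adjusted p 0.0370 to 0.0556). It ran from -0.880 to -0.641 in follicular-type B-like cells (adjusted p 0.0370 to 0.0635) and from -0.867 to -0.558 in CD4 T-like cells (adjusted p 0.0444 to 0.0635), with an exact permutation p of 0.0159 to 0.0317 in both. The ratio was 2.18 against 2.54 in B-1-type B-like cells (exact permutation p = 0.0714), 2.20 against 2.72 in CD8 T-like (0.159), 2.58 against 2.79 in NK-like (0.659) and 1.81 against 2.67 in macrophage- and monocyte-like cells (0.107). Both short genes thus lay lower relative to their partner in all CD45+, follicular-type B-like and CD4 T-like cells, and the mean was lower in every type for both ratios. The plot of ratios within shared transcripts gives the value of every mouse.

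**Figure D4:**
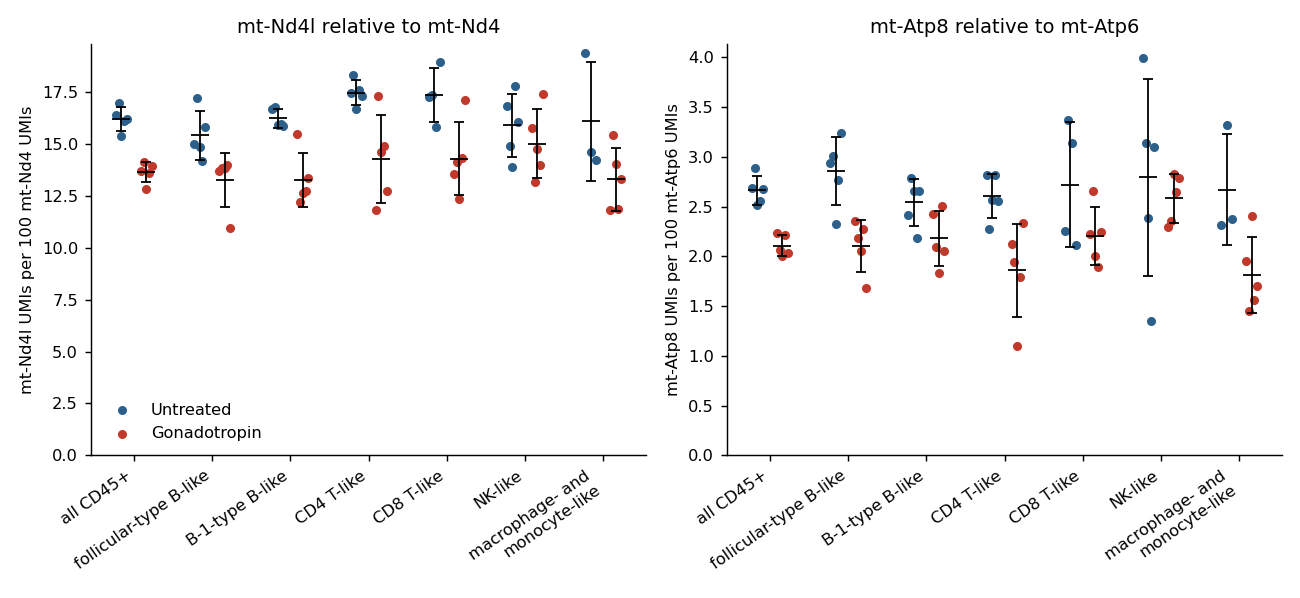
UMIs of mt-Nd4l per 100 UMIs of mt-Nd4 (left) and of mt-Atp8 per 100 UMIs of mt-Atp6 (right) by mouse, in all CD45+ cells and each gated type; bars are the mean and SD. In all CD45+ cells the Gonadotropin mice lie at 12.9 to 14.2 and the Untreated mice at 15.4 to 17.0 for mt-Nd4l, without overlap.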

How the data were processed

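The authors deposited whole-number counts of UMIs per gene and barcode, without normalization, for both pools together, with hashtag calls per barcode. Per the submitters' processing notes bcl2fastq, Cell Ranger, Seurat and mm10 were used, with no versions given. Of 6468 barcodes, the 4918 kept had a single hashtag call, 500 or more genes, and a mitochondrial share below 10%. Cells were gated on marker UMIs: B 5, follicular-type 3, B-1-type 10, T 3, CD4 1, CD8 2, NK 5, macrophage and monocyte 5. Of other lineages, a cell could hold at most 1 B or T marker UMI and 4 neutrophil UMIs. For NK and for macrophage and monocyte markers the limit was 1 marker gene, at any number of UMIs. The T gates set no limit on NK markers. Hashtag doublets were left out, and doublets within a mouse were not called.

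Counts were summed per mouse and type and tested with edgeR 4.0.16 in R 4.3.3 (TMM, filterByExpr, quasi-likelihood F test, Benjamini-Hochberg over all genes tested, threshold 0.05). CPM use TMM-scaled library sizes, other levels use plain totals. Type contrasts held the mouse as a term. DESeq2 1.42.0 and other settings were alternatives. Each background is the share of all genes tested at an edgeR adjusted p under 0.05, or without overlap of the groups. Counts at an unadjusted p under 0.05 and counts of DESeq2 have no such share beside them. Permutation tests used scipy 1.17.1. The fits were tested on simulated data. Whether the hashtagged samples were prepared separately beyond the mouse is not given, and p-values do not cover the spread between libraries. Intervals and floors cover counting error only. The median depth per cell was 7034 UMIs in Gonadotropin and 7664 in Untreated cells.

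The members, gene lists and comparisons were chosen with earlier results of these data known. Named genes are the 13 mitochondrial genes, per comparison up to 10 nuclear members with the largest change among those that passed, or the 3 with the smallest p where none did, a list of 10 subunits where they passed, paralogs, and genes of the surrounding lists that passed. Mouse numbers are only names.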

Additional observations from a re-analysis of the deposited data

Results flagged for a closer look

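The ratio of mt-Nd4l to mt-Nd4 in follicular-type B-like cells of Gonadotropin mouse 5 stood apart from the other 4 mice of its group. It was 10.9 UMIs of mt-Nd4l per 100 UMIs of mt-Nd4, and the next value was 13.7. The gap was 0.908 of the range of the 5 mice. Of 52 groups examined this was the 1 that stood apart, and chance places about 5% of groups there.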

How the results depend on the processing

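Over all CD45+ cells the nuclear count of 1 was 3 with DESeq2, 2 with library sizes without ribosomal protein and mitochondrial genes, 0 without a filter on low counts, with plain UMI totals or in the equal draw of cells, and 0 to 4 without single mice (4 without Untreated mouse 1). The mitochondrial count of 12 was 3 in the equal draw, where mt-Nd1 (0.077) and mt-Co3 (0.011) changed sign. In follicular-type B-like cells the nuclear count of 0 was 3 without the filter, 1 with plain totals and 0 to 1 without single mice. In B-1-type B-like cells the nuclear count of 0 was 1 without the filter, and the mitochondrial count of 0 was 2 with DESeq2, 1 without the filter, 1 with 1 more marker UMI and 0 to 1 without single mice. In CD4 T-like cells the mitochondrial count of 0 was 1 without the filter. In CD8 T-like cells the count of 1 was 0 with 1 more marker UMI and 0 to 1 without single mice. With plain totals the nuclear count was 29 for B-1-type over follicular-type (48 higher and 1 lower before) and 55 for NK-like over CD8 T-like cells (16 and 9 before). The cause of these changes was not tested.

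The log2 ratio of the summed mitochondrial share (Gonadotropin over Untreated) was -0.24 in all CD45+ cells and -0.32 in percent of UMIs outside ribosomal protein and mitochondrial genes. In follicular-type B-like cells it was -0.19, with -0.15 as a mean of cells, -0.23 outside ribosomal protein and mitochondrial genes and -0.13 outside the erythrocyte markers. With the ribosomal protein and mitochondrial genes outside the denominator it was -0.0905 in B-1-type B-like and -0.15 in CD8 T-like cells, and the nuclear ratio was -0.0887 in all CD45+ and -0.0899 in CD8 T-like cells. The ratio of mt-Atp8 to mt-Atp6 in NK-like cells ran from -0.571 to 0.0889 (Gonadotropin minus Untreated) without single mice and changed sign without Untreated mouse 1. Macrophage- and monocyte-like cells could not be fitted for treatment with 1 more marker UMI, for lack of Untreated mice. No paired analysis was possible because the mouse numbers are only names and do not tie mice across the groups. Of the single values examined under all alternatives, 3588 kept their direction and side of the threshold, 155 lost and 17 gained a call, 26 without a test moved and 3 changed sign. The types other than follicular-type B-like cells had 14 to 145 cells per mouse, and the part of depth in the number of calls was not tested.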
